A study of Homo sapiens with 8 samples.

Results

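The nuclear subunit genes of respiratory complex I were examined in MOLM-13 cells, a human acute myeloid leukemia (AML) cell line, after knockdown (KD) of the splicing factor PTBP1. The members were the protein coding genes of GENCODE version 44 whose symbol is NDUF followed by A, B, C, S or V and a number. All 37 such genes were in the table, out of 62639 genes listed and 16474 genes with a count. All 37 passed the filter on low counts, which kept 7597 genes.

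Cells carried a lentiviral construct with mCherry expressed at all times and with an shRNA and the truncated surface receptor ΔLNGFR switched on by doxycycline (dox). In shPTBP1 the shRNA was against PTBP1, and in shSCR it was a scrambled sequence. Both received dox for 9 days, so that dox, the receptor and mCherry were common to the groups. Each group had 4 biological replicates, and the study's text describes 1 shRNA against PTBP1 and 1 scrambled shRNA. Loss of PTBP1 and any other difference between cells carrying these shRNAs cannot be told apart. Nanopore sequencing of cDNA gave the authors counts of reads per annotated transcript and library.

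Complex I takes electrons from NADH, passes them along a flavin and a chain of iron-sulfur clusters to ubiquinone, and pumps protons across the inner mitochondrial membrane. Its matrix arm holds the redox centers, and its membrane arm pumps the protons. The core subunits of the membrane arm are encoded in mitochondrial DNA and the core subunits of the matrix arm in the nucleus. The accessory subunits, all nuclear, surround the core and are needed to assemble or stabilize it. Many AML cells are known for a strong reliance on mitochondrial respiration.

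The library totals were between 1528449 and 1613342 counts. PTBP1 was 9.88 ± 3.55 CPM in shPTBP1 and 47.5 ± 7.81 CPM in shSCR (SD, n = 4 each), where CPM is counts per 1000000 after TMM scaling of the library size. It fell by 2.26 on the log2 scale (edgeR, adjusted p = 7.18e-05), and no shPTBP1 library reached the lowest shSCR library. Of the myeloid markers, PTPRC, CD33, MPO and LYZ were counted in every library and FLT3 at 3 to 12 counts, but SPI1 had 1 count over all 8 libraries. CD3E and MS4A1 were at 0 in every library, and EPCAM and ALB had at most 1 count in a library. COL1A1, a collagen gene that leukemia cells should not express, had 1, 4, 4 and 4 counts in shPTBP1 and 0, 4, 0 and 0 in shSCR, and its part in any result was not tested.

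Most complex I subunit genes did not pass the test between shPTBP1 and shSCR, with narrow intervals around 0. NDUFC1, a small subunit of the membrane arm, fell by 0.67 on the log2 scale, and NDUFB8, of the distal membrane arm, rose by 0.30. NDUFS4, of the matrix arm, was 0.26 lower on the log2 scale without passing the threshold (edgeR, adjusted p = 0.0617), and a larger share of its counts came from an isoform with an added exon that is annotated as a target of nonsense-mediated decay (NMD). Together the 37 genes took 1.31% to 1.40% of a library's counts in shPTBP1 and 1.31% to 1.39% in shSCR.

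With calls made at an adjusted p under 0.05 in edgeR, 1 of the 37 genes was lower, against 3.19% of all genes tested, and 1 was higher, against 2.36%. In either direction 5.54% of all genes tested were called. An unadjusted p under 0.05 was reached by 8 of 37, against 19.2% of all genes tested. Groups of libraries without any overlap were seen for 3 of 37, against 12.7% of all genes tested. These shares are near those of all genes. The log2 fold change was above 0 for 22 members and below 0 for 15, with a median of 0.04, while 49.95% of all genes tested were above 0. For 31 of the 37 genes the 95% interval of the log2 fold change lay within 0.5 of 0 on both sides, which was so for 3182 of the 7597 genes tested. In bulk RNA, fewer cells that hold a transcript and less of it per cell cannot be told apart.

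**Figure D1:**
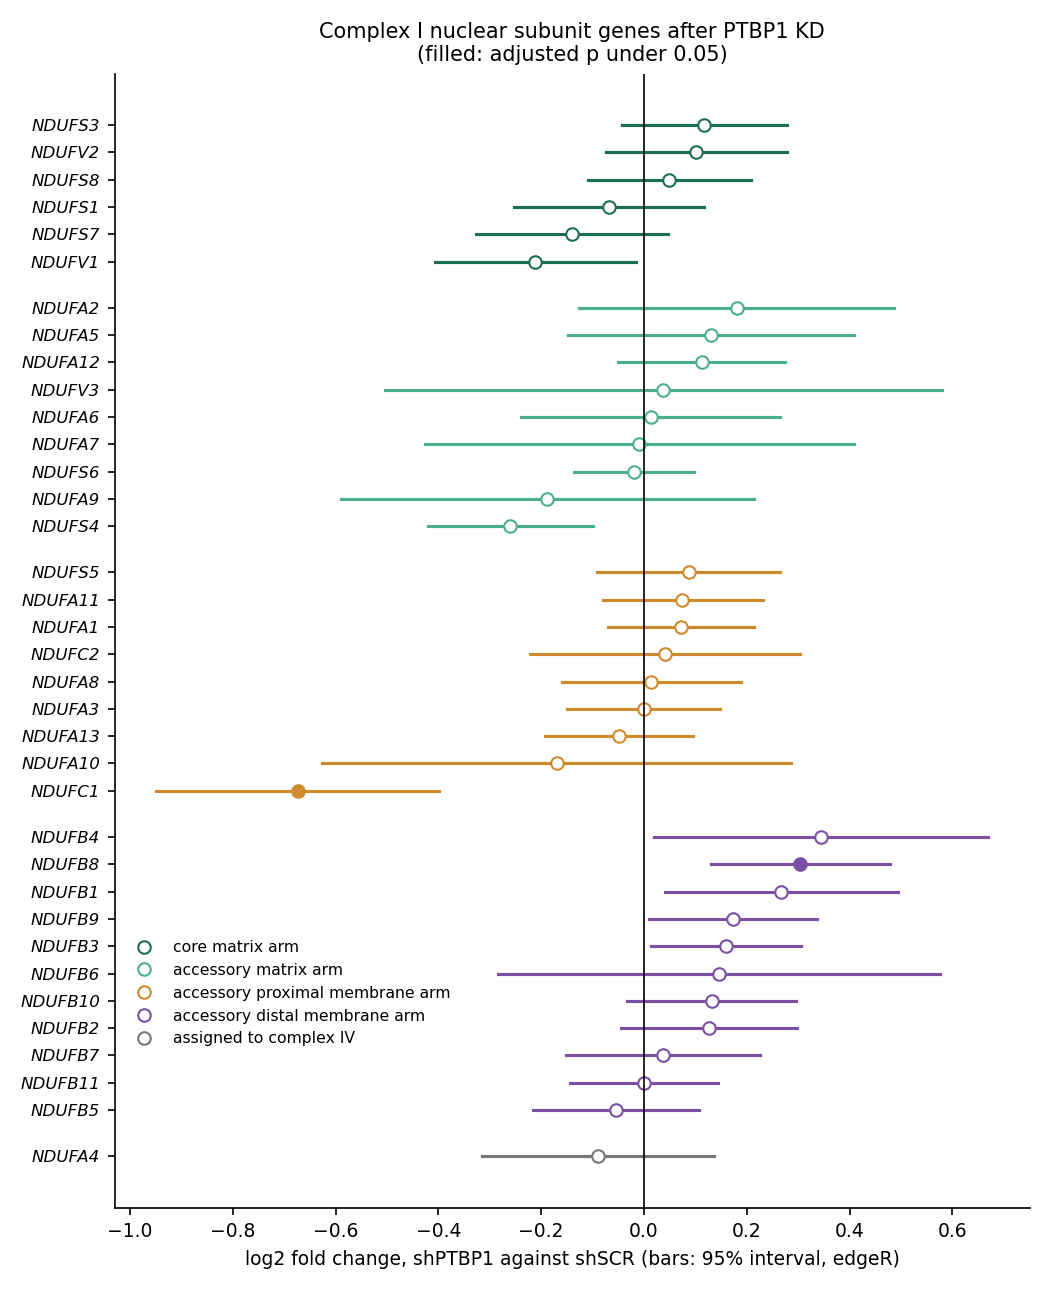
Log2 fold change (shPTBP1 against shSCR, x axis) of 36 of the 37 genes, grouped by the place of the subunit in the complex, with 95% intervals from edgeR and filled points for an adjusted p under 0.05. NDUFC1 lies at -0.67 and NDUFB8 at 0.30, and the other genes drawn lie between -0.26 and 0.34.

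Levels per length spanned a wide range among subunits that are present once in the complex. The highest was NDUFA13 (GRIM-19), a transmembrane subunit that reaches from the membrane arm into the matrix, at 3467 CPM per kb over the 8 libraries. The lowest was NDUFA9, a nucleotide-binding subunit next to the quinone site, at 3.27 CPM per kb, for which annotated transcripts with a mean length of 7468 bases were counted. CPM per kb divides the CPM by the mean length of the gene's transcripts, weighted by their counts. This division lowers the values of genes with long annotated transcripts, and whether it applies to these long reads was not tested. By CPM alone NDUFA13 was also the highest, but the lowest was NDUFV3, at 13.8 CPM in shPTBP1 and 13.4 CPM in shSCR. NDUFA13 had 1778 ± 139 CPM in shPTBP1 and 1837 ± 124 CPM in shSCR, and NDUFA9 had 22.8 ± 3.78 and 26.0 ± 4.72 CPM (SD, n = 4 each). Neither passed the test, with log2 fold changes of -0.05 and -0.19.

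The 7 core subunits of the matrix arm carry the flavin and the iron-sulfur clusters. None of them was called, their median log2 fold change was -0.07, and all 7 intervals lay within 0.5 of 0. Log2 fold changes ran from -0.21 for NDUFV1 to 0.12 for NDUFS3. The summed counts of the 7 genes were 0.135% to 0.144% of the counts of annotated genes in shPTBP1 and 0.136% to 0.149% in shSCR.

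NDUFV1, the subunit that binds the flavin and oxidizes NADH, was at 161.3, 123, 127 and 129 CPM in shPTBP1 replicates 1 to 4 and at 148, 159, 160.7 and 159 CPM in shSCR replicates 1 to 4. Replicate 1 of shPTBP1 stood above all other libraries, and the other 3 shPTBP1 libraries were below all of shSCR. The log2 fold change was -0.21 (SE 0.09), and the adjusted p in edgeR 0.223. Without shPTBP1 replicate 1 it was -0.31 with an adjusted p of 0.0401 in edgeR, so that 1 library decides this call. NDUFS7, which holds the last iron-sulfur cluster before ubiquinone, was at 136, 134, 115 and 131 CPM in shPTBP1 and at 156, 129, 135 and 148 CPM in shSCR. These ranges overlap, and the log2 fold change of NDUFS7 was -0.14 (SE 0.09; edgeR, adjusted p = 0.416).

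Of the 9 accessory subunits of the matrix arm, none was called at the gene level and the median log2 fold change was 0.01, with 5 above 0 and 4 below. The smallest standard error was that of NDUFS6, a zinc-binding subunit, at 1399 ± 32.8 CPM in shPTBP1 and 1418 ± 77.5 CPM in shSCR (SD, n = 4 each), with a 95% interval of the log2 fold change from -0.14 to 0.10. The largest was that of NDUFV3, a small subunit on the tip of the arm, at 13.8 ± 4.79 and 13.4 ± 1.64 CPM, whose interval ran from -0.50 to 0.58. Differences of NDUFV3 within these bounds were not detectable at this depth.

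NDUFS4 (ENSG00000164258, chr5:53560633-53683338, hg38, plus strand) encodes an accessory subunit at the junction of the NADH-oxidizing and the ubiquinone-reducing parts, and is a known gene of Leigh syndrome. It is shown here in detail because 1 of its isoforms was the only isoform of any member past an adjusted p of 0.05 in edgeR. The isoform NDUFS4-204 (ENST00000506974.5) has 6 exons, the main isoform NDUFS4-201 has 5, and the added one is exon 3 of NDUFS4-204, at chr5:53604724-53604895. The exon is 172 bases long, which is not a multiple of 3 (remainder 1). It starts 1193 bases after the exon before it and lies 41337 bases before the next exon. The annotated coding sequence of NDUFS4-204 ends in exon 4, 203 bases before the last exon junction, and is 393 bases long, against 525 in NDUFS4-201. Of 6 annotated NDUFS4 transcripts, 1 has exactly this exon, and NDUFS4-202 has a part of it. The sequence from hg38 (chr5:53604624-53604848, plus strand, 5′ to 3′) shows the last 100 bases of the intron before the exon in lower case and the first 125 bases of the exon in capitals:

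NDUFS4 intron and added exon: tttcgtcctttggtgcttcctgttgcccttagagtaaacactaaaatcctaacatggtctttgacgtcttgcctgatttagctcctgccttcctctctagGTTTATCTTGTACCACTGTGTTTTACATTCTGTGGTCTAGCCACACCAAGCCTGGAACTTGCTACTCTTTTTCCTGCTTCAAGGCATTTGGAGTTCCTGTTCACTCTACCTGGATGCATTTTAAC

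PTBP1 binds pyrimidine-rich RNA and is known to repress many exons that follow such tracts. Of the 100 intron bases, 66% were pyrimidines (C or T). The median over 10378 windows of the same length before annotated internal and last exons of chromosome 5 was 55%, and 7.47% of these windows had at least as high a share. The letters TCTT stood 2 times in the window on the strand of the gene, and 30.7% of the windows had as many. TCTCT stood there 1 time and in 24.3% of the windows, and the motifs can overlap each other. A match of letters is a description of the sequence, and binding was not examined.

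In every library a minority of NDUFS4 counts came from NDUFS4-204. Its share was 12.2%, 13.7%, 13.9% and 15.1% in shPTBP1 replicates 1 to 4 and 6.31%, 7.07%, 6.74% and 7.18% in shSCR replicates 1 to 4. The lowest shPTBP1 library was above the highest shSCR library. The means were 13.7% ± 1.19 and 6.83% ± 0.392 (SD, n = 4 each), a difference of 6.88 percentage points (edgeR diffSpliceDGE, adjusted p = 0.00166). The two-sided exact permutation test gave p = 0.0286, the smallest that 4 against 4 libraries can give. The change is under the minimum of 10 points set for a call of an isoform, so that it does not count as one. The adjusted p stayed under 0.05 in all 8 fits that leave out 1 library (edgeR diffSpliceDGE, 0.00407 to 0.0223). The counts behind these shares were 40, 45, 53 and 53 in shPTBP1 and 28, 28, 29 and 30 in shSCR.

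The main isoform, NDUFS4-201, held 82.1% to 85.1% of NDUFS4 counts in shPTBP1 and 89.7% to 91.2% in shSCR. This share did not pass the test (edgeR diffSpliceDGE, unadjusted p = 0.302). Its level was 188 ± 14.3 CPM in shPTBP1 and 245 ± 13.8 CPM in shSCR, a difference of -56.6 CPM. The level of NDUFS4-204 was 31.0 ± 4.39 CPM in shPTBP1 and 18.4 ± 1.06 CPM in shSCR, a difference of 12.6 CPM (SD, n = 4 each). Levels of each isoform alone did not overlap between groups.

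At the gene level NDUFS4 was at 208, 217, 252 and 225 CPM in shPTBP1 and at 273, 252, 287 and 268 CPM in shSCR. The highest shPTBP1 library, replicate 3 at 251.5 CPM, lay just under the lowest shSCR library, replicate 2 at 252.1 CPM. The log2 fold change was -0.26 (SE 0.07, 95% interval -0.42 to -0.10), and the adjusted p of 0.0617 in edgeR misses the threshold. Counting only transcripts of the type protein coding, which leaves NDUFS4-204 out, the log2 fold change was -0.36 and the adjusted p in edgeR 0.011.

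**Figure D2:**
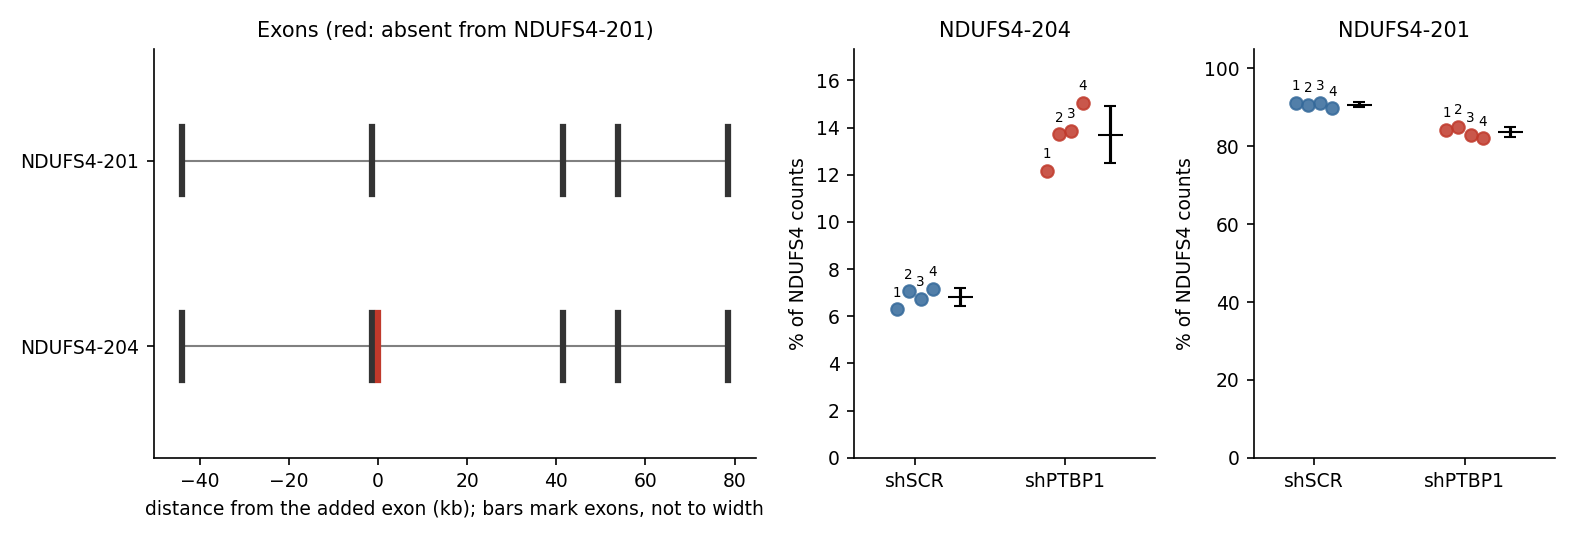
Left, exons of NDUFS4-201 and NDUFS4-204 by distance from the added exon in kb (exon widths not to scale). Middle and right, the share of NDUFS4 counts (y axis, %) of each isoform in the 4 shSCR and 4 shPTBP1 libraries, numbered by replicate, with mean and SD. NDUFS4-204 lies between 12.2% and 15.1% in shPTBP1 and between 6.31% and 7.18% in shSCR.

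Of the 9 accessory subunits of the proximal membrane arm, NDUFC1 was called lower and no other was called. The median log2 fold change was 0.01, and the other 8 lay between -0.17 (NDUFA10, of the deoxynucleoside kinase family) and 0.09 (NDUFS5, a subunit on the intermembrane side). NDUFA3, a small transmembrane subunit, was at 389.6 ± 25.9 CPM in shPTBP1 and 389.7 ± 22.4 CPM in shSCR (SD, n = 4 each).

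NDUFC1 (ENSG00000109390, chr4:139266880-139302551, hg38, minus strand) encodes a small subunit with a single transmembrane helix. It was at 32.9, 35.7, 40.8 and 33.9 CPM in shPTBP1 replicates 1 to 4 and at 53.5, 52.2, 68.7 and 54.5 CPM in shSCR replicates 1 to 4. All 4 shPTBP1 libraries were below all 4 shSCR libraries, and shSCR replicate 3 was the highest of all. The means were 35.8 ± 3.52 and 57.2 ± 7.70 CPM (SD, n = 4 each), and the log2 fold change was -0.67 (SE 0.13, 95% interval -0.95 to -0.40; edgeR, adjusted p = 0.00944). The two-sided exact permutation p was 0.0286. The counts were 52, 54, 62 and 53 in shPTBP1 and 87, 82, 103 and 85 in shSCR. The call held without each library in turn, with adjusted p of 0.0137 to 0.0317 in edgeR. It was lost when only transcripts of the type protein coding were counted, with a log2 fold change of -0.48 and an adjusted p of 0.083 in edgeR. NDUFC1-202, its most counted transcript, is annotated without a defined coding sequence and was left out there.

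The counts of NDUFC1 are assigned to transcripts with separate annotated starts. This division was made after their values were seen, so that it carries no test. Upstream start here means the 5 counted transcripts whose first base lies within 74 bases of the most upstream one, at base 139302551 of chromosome 4. Downstream start means the 5 whose first base lies 1131 to 1347 bases further along the gene. These are starts in the annotation, and the ends of the reads were not examined. Transcripts from the upstream start were at 13.9, 23.1, 25.0 and 21.1 CPM in shPTBP1 and at 35.6, 35.7, 50.01 and 37.2 CPM in shSCR. Those from the downstream start were at 19.0, 12.6, 15.8 and 12.8 CPM in shPTBP1 and at 17.8, 16.6, 18.7 and 16.7 CPM in shSCR. The groups did not overlap for the upstream start, with a log2 ratio of the means of -0.93, and overlapped for the downstream start, with a log2 ratio of -0.21. The difference between the starts was not tested. NAA15, on the opposite strand, overlaps NDUFC1 and had 115 counts in shPTBP1 and 120 in shSCR over 4 libraries each. Whether counting used the strand is not given in the sources used here.

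The 250 bases before the upstream start are printed because the transcripts that begin there differed most (RefSeq, GRCh38.p14, chr4:139302552-139302801, minus strand, 5′ to 3′, with no motif match and therefore no capitals):

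NDUFC1 before the upstream start: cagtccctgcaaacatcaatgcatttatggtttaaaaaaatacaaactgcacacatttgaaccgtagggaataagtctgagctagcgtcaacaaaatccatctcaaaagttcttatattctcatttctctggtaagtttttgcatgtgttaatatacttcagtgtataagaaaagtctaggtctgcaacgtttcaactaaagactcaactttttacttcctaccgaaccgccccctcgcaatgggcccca

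Promoter windows of 300 bases (250 before and 50 after a start) from RefSeq were found for 31 of the 37 genes, as 38 windows. They were searched on both strands for letters of factors known at promoters of respiratory genes and for those of RUNX. CGCNTGCG, for NRF1, was in windows of 11 members and in 10.04% of all 35116 windows. CCGGAAG, for ETS factors such as GABPA, was in 5 members and in 10.3% of all windows. AAGATGGC, for YY1, was in 7 members and in 2.89% of all windows, and TGTGGT, for RUNX, was in 4 members and in 13.1% of all windows. The motifs can overlap, members have up to 4 windows each, and absence of a match says only that these letters are not in the window. A member was counted if any of its windows had a match, while the percentages are of single windows. These are unlike units, and a share per gene was not worked out. For NDUFC1 the windows at the upstream start had no match, and those at the downstream start held the NRF1 letters as CGCAGGCG. NDUFS4 and NDUFB8 each had a YY1 match just after a start. The letters AAGATGGC hold ATG, the bases of a start codon. Whether these or other YY1 matches are starts of coding sequences was not examined.

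The 11 accessory subunits of the distal membrane arm, NDUFB1 to NDUFB11, surround the far proton pumps. NDUFB8 was called higher and none lower, and 9 log2 fold changes were above 0 and 2 below, with a median of 0.15. The 5 members with an unadjusted p under 0.05 and a higher level, all of this arm, are 5 of the 37 members, while 9.1% of all genes tested were higher by that measure. The summed counts of all 11 genes of the arm were 0.485% to 0.534% of the counts of annotated genes in shPTBP1. In shSCR they were 0.448% to 0.503%, and these ranges overlap.

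NDUFB8 (ENSG00000166136, chr10:100523740-100530000, hg38, minus strand) encodes a subunit whose protein is widely used to judge whether complex I is assembled. It was at 978, 1064, 1012 and 1066 CPM in shPTBP1 replicates 1 to 4 and at 870, 679, 892 and 895 CPM in shSCR replicates 1 to 4. The groups did not overlap, and shSCR replicate 2 stood well below the other 3 shSCR libraries. The means were 1030.0 ± 42.8 and 834 ± 104 CPM (SD, n = 4 each), and the log2 fold change was 0.30 (SE 0.08, 95% interval 0.13 to 0.48; edgeR, adjusted p = 0.0453). The two-sided exact permutation p was 0.0286. The call was lost in 7 of the 8 fits that leave out 1 library, with an adjusted p from 0.0441 to 0.125 in edgeR over the 8. The log2 fold change was 0.29 to 0.34 in these 7 fits. The call was kept only without shSCR replicate 2, the library that stands apart, where the log2 fold change was 0.22, the smallest of the 8. HIF1AN, on the opposite strand, overlaps NDUFB8 and had 117 counts in each group.

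**Figure D3:**
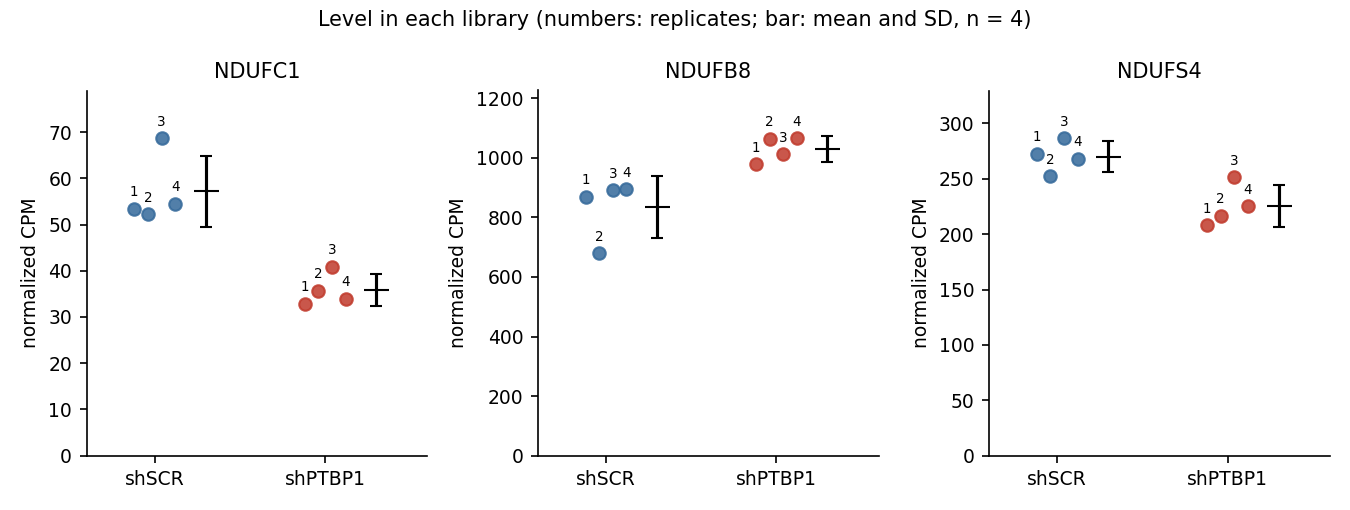
Normalized CPM (y axis, from 0) of NDUFC1, NDUFB8 and NDUFS4 in the 4 shSCR and 4 shPTBP1 libraries, numbered by replicate, with mean and SD. The groups do not overlap in any of the 3 panels, and NDUFS4 did not pass the threshold (edgeR, adjusted p = 0.0617).

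The next members of the distal arm by p did not pass the test. NDUFB1, a small transmembrane subunit, was at 138, 175, 161 and 171 CPM in shPTBP1 and at 114, 127, 139 and 157 CPM in shSCR. For NDUFB1 this was a log2 fold change of 0.27 ± 0.11 (SE), and the adjusted p in edgeR was 0.180. NDUFB3, also a small transmembrane subunit, was at 323, 373, 338 and 357 CPM and at 299, 295, 327 and 323 CPM. For NDUFB3 this was a log2 fold change of 0.16 ± 0.07 (SE), and the adjusted p in edgeR was 0.217. For both genes the groups overlapped, although the highest library was in shPTBP1 and the lowest in shSCR.

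NDUFB4, a transmembrane subunit, was at 37.3, 35.7, 53.3 and 43.5 CPM in shPTBP1 and at 33.2, 29.3, 33.3 and 37.9 CPM in shSCR. Its log2 fold change of 0.34 (SE 0.15) was larger than that of NDUFB8 but less precise, with an adjusted p of 0.234 in edgeR. NDUFB9, which binds an acyl carrier protein on the matrix side, was at 1062, 1204, 1249 and 1299 CPM in shPTBP1 and at 996, 990.1, 1196 and 1088 CPM in shSCR. For NDUFB9 this was a log2 fold change of 0.17 ± 0.08 (SE), and the adjusted p in edgeR was 0.236. NDUFB10, on the intermembrane side, was at 382, 472, 472 and 424 CPM in shPTBP1 and at 401, 381, 387 and 427 CPM in shSCR. For NDUFB10 this was a log2 fold change of 0.13 ± 0.08 (SE), and the adjusted p in edgeR was 0.380. All of these ranges overlap. At the other end NDUFB11, a transmembrane subunit encoded on the X chromosome, was at 572.8 ± 19.5 CPM in shPTBP1 and 572.9 ± 47.1 CPM in shSCR (SD, n = 4 each).

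NDUFA4 fits the rule on symbols but its protein is now assigned to complex IV. It was at 88.9 ± 7.02 CPM in shPTBP1 and 94.6 ± 12.4 CPM in shSCR (SD, n = 4 each), with a log2 fold change of -0.09. Leaving it out changes none of the counts of called members.

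Isoforms other than NDUFS4-204 were also compared. The members had 229 isoforms with a count, of which 51 in 21 genes were counted well enough to be tested. None met both criteria of a call, adjusted p under 0.05 and 10 points of change, against 1.12% of the 5464 isoforms tested. By adjusted p alone 1 of the 51 passed, against 1.78% of all, and by unadjusted p 2 passed, against 6.37%. For 19 members 1 isoform held over 90% of the counts in every library.

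After NDUFS4-204, the smallest p was that of NDUFB10-202, at 2.45% ± 0.425 of NDUFB10 counts in shPTBP1 and 1.45% ± 0.811 in shSCR (edgeR diffSpliceDGE, adjusted p = 0.624). NDUFB11-201 held 1.61% ± 0.140 of NDUFB11 counts in shPTBP1 and 2.31% ± 0.135 in shSCR (edgeR diffSpliceDGE, adjusted p = 0.990). NDUFA11-206, of the transmembrane subunit NDUFA11, held 2.84% ± 0.469 in shPTBP1 and 3.64% ± 0.108 in shSCR (edgeR diffSpliceDGE, adjusted p = 1.0). Of these 3, only NDUFB10-202 had overlapping groups. NDUFB11-201 and NDUFA11-206 were lower in every shPTBP1 library than in any shSCR library, with differences of -0.70 and -0.81 points. How often groups do not overlap among all isoforms tested was not worked out, so nothing is read from it here.

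Over all 37 genes, 96.1% to 96.7% of the counts in shPTBP1 and 96.0% to 96.3% in shSCR came from transcripts of the type protein coding. Transcripts annotated as NMD targets held 2.61% to 3.03% in shPTBP1 and 2.94% to 3.21% in shSCR, ranges that overlap. Most of these counts were those of NDUFB5-202, which held 89.1% to 92.3% of NDUFB5 counts in shPTBP1 and 91.1% to 94.99% in shSCR. NDUFB5 is a distal arm subunit at 333 ± 24.7 CPM in shPTBP1 and 346 ± 26.4 CPM in shSCR (SD, n = 4 each).

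Transcripts annotated as retaining an intron held 0.403% to 0.519% of the members' counts in shPTBP1 and 0.260% to 0.397% in shSCR, without overlap. Many of these counts came from NDUFB8-204, at 1.90% ± 0.111 of NDUFB8 counts in shPTBP1 and 1.48% ± 0.241 in shSCR, and from NDUFA2-202. The latter held 34.8% ± 4.19 and 27.0% ± 2.25 of the counts of NDUFA2, a matrix arm subunit with a thioredoxin fold, and neither isoform passed the test (edgeR diffSpliceDGE, adjusted p = 1.0 for both). NDUFA2 had 394 counts over all libraries and is overlapped on the opposite strand by IK, with 2281 counts, and TMCO6, with 105. Whether counting used the strand is not given. Transcripts without a defined coding sequence, NDUFC1-202 among them, held 0.290% to 0.435% in shPTBP1 and 0.451% to 0.496% in shSCR, again without overlap. These shares by type were looked at after the values were seen and carry no test. The same shares over all genes were not worked out, so a difference across the whole library and one of the members cannot be told apart.

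Near-identical copies took few counts. Of 56 listed pseudogenes named after a member, 4 had a count, with 19 counts over the 8 libraries against 171517 for the members.

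Other genes of complex I are left out by the rule on symbols. Of the 7 subunits encoded in mitochondrial DNA, which form the proton-pumping core, none was called, and 6 log2 fold changes were above 0 with a median of 0.16. MT-ND6, the core subunit encoded on the opposite strand of mitochondrial DNA from the others, is named after its values were seen. Its groups did not overlap, and 1 library stands apart, as was also flagged for MT-ND1, MT-ND2 and MT-ND5. MT-ND6 was at 120.2, 35.0, 39.5 and 49.3 CPM in shPTBP1 and at 32.0, 29.3, 24.0 and 25.7 CPM in shSCR. Its log2 fold change was 1.14 (edgeR, adjusted p = 0.0728), and without shPTBP1 replicate 1 it was 0.57. Whether the counts of MT-ND6 were taken by strand is not given in the sources used here. NDUFAB1, the acyl carrier protein of the complex, had a log2 fold change of -0.07 (edgeR, adjusted p = 0.751).

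Of 21 assembly factors listed, 18 were tested, 2 were called higher and none lower, with a median log2 fold change of 0.19, while 2.36% of all genes tested were called higher and 3.19% lower. NDUFAF3, which helps build the ubiquinone-reducing part, was at 306, 339, 306 and 312 CPM in shPTBP1 and at 237, 236, 246 and 267 CPM in shSCR. All shPTBP1 libraries were above all shSCR libraries, and NDUFAF3 rose by 0.36 on the log2 scale (SE 0.07; edgeR, adjusted p = 0.00936), a call that held without each library in turn. COA1, known for roles in the assembly of complexes I and IV, was at 41.8, 46.9, 59.9 and 47.4 CPM in shPTBP1 and at 24.6, 34.4, 33.3 and 31.4 CPM in shSCR. It rose by 0.66 (SE 0.15; edgeR, adjusted p = 0.0215), and 4 of the 8 fits that leave out 1 library lost the call, with log2 fold changes of 0.56 to 0.68 and adjusted p of 0.0511 to 0.0768 in edgeR. NDUFAF5, NDUFAF8 and TMEM186 were too low to be tested.

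Of 11 regulators of mitochondrial biogenesis, 9 were tested and none was called, with a median log2 fold change of 0.11. TFAM, which packages mitochondrial DNA and takes part in its transcription, was at 26.6 ± 7.20 CPM in shPTBP1 and 17.5 ± 7.08 CPM in shSCR (SD, n = 4 each). Its log2 fold change was 0.60 (edgeR, adjusted p = 0.245). TFAM was chosen after its values were seen, as the only regulator with an unadjusted p under 0.05. PPARGC1A, a coactivator of respiratory genes, was at 0 in every library, which allows up to 3 counts in each, and ESRRA was too low to be tested.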

How the data were processed

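Long-read cDNA of 8 MOLM-13 libraries (4 shPTBP1, 4 shSCR, grouped and numbered by the sample labels) had been mapped by the authors to hg38 with minimap2, filtered on mapping quality, and counted with StringTie. The deposited counts are whole numbers per transcript, not normalized. The deposited second table holds CPM, the transcript count per 1000000 counts of the library, which was checked from the values. The annotation and tool versions are not given in the sources used here. Of 254070 transcripts, 252562 matched GENCODE version 44 by identifier and were summed per gene, and 1508 were left out.

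After filterByExpr (minimum count 10) and TMM scaling, a quasi-likelihood model with group as its only term was fitted in edgeR 4.0.16 (R 4.3.3), and p-values were adjusted over all 7597 genes. For isoform usage, diffSpliceDGE was run on 5464 transcripts. Single values were compared by two-sided exact permutation tests. The totals of 1528449 to 1613342 counts limit precision for low genes, and a gene at 0 could still have up to 3 counts by counting error alone. Amplified cDNA molecules are not independent.

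Named members were the 10 with the smallest p, those with the highest and lowest level per kb, and the 4 isoforms with the smallest p. Named genes of the other lists were those called. Further genes were named after their values were seen, as examples of small or imprecise differences. The members and the lists were chosen with earlier results of these data known. The alternatives were DESeq2 1.42.0, voom and trend of limma 3.58.1, other size factors, filters and transcript types, the replicate number as a block, and leaving out each library. The tests were tried on simulated data. CUT&Tag and other experiments of the study were not analysed here. The values of 1 member are not reported here, and it is not drawn, though it is included in the counts over members.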

Additional observations from a re-analysis of the deposited data

Results flagged for a closer look

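In 8 of 102 groups of 4 libraries, 4 of them among the 74 groups of the members, 1 library lay far from the other 3 by Dixon's criterion at the 95% level, which chance gives in about 1 group of 20. The groups are the shPTBP1 or shSCR libraries of each of the members and of the other complex I genes looked at. The shares of the 4 isoforms with the smallest p were looked at in the same way and are among the 102 groups. In shPTBP1 replicate 1, NDUFB2 was at 696.6 CPM (the others at 817 to 836.4), NDUFV1 at 161.3 CPM (122.9 to 129.3), MT-ND5 at 285.3 CPM (366.7 to 371.3) and MT-ND6 at 120.2 CPM (35.02 to 49.3). In shSCR replicate 2, NDUFB8 was at 679.4 CPM (869.5 to 895.1), MT-ND1 at 433.0 CPM (707.7 to 725.7) and MT-ND2 at 256.0 CPM (356.1 to 376). In shSCR replicate 3, NDUFC1 was at 68.69 CPM (52.21 to 54.54). These 3 libraries hold all 8 values, and the part of any property of the libraries in them was not tested.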

How the results depend on the processing

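Of 160 values for the 10 members named by p (each under 8 other settings and without each of 8 libraries), 147 kept their direction and side of the threshold, 9 lost their call, 4 gained one and 0 reversed. The count of members called lower was 1, and 2 (NDUFC1 and NDUFS4) with a mean of at least 50 counts and with limma-trend on the CPM table. Counting only protein coding transcripts it was also 1, but NDUFS4 in place of NDUFC1. Leaving out 1 library gave 1 to 2 called lower and 0 to 1 called higher. With the replicate number as a block, 0 were called higher and 1 lower, and NDUFB8 had an adjusted p of 0.0673 in edgeR. The numbers were not taken as pairs, since deviations of same-numbered libraries correlated at -0.0328 to 0.00889. Isoforms called were 0, and 1 (NDUFS4-204) with a minimum change of 5 points or none, and 0 to 0 without each library. By adjusted p alone, 2 isoforms (NDUFS4-201 and NDUFS4-204) passed in limma diffSplice, against 1 (NDUFS4-204) in edgeR. MT-ND6 was called higher by DESeq2 (adjusted p = 0.0235), and in edgeR without a filter (0.00151) and with the block (0.0398). At this depth, intervals of NDUFA9, NDUFA10, NDUFB4, NDUFB6 and NDUFV3, none of them called, reached beyond 0.5 on the log2 scale. The causes of these differences were not tested.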
